A study of Mus musculus with 12 samples.

Results

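Cells washed from the lungs of pregnant mice were compared with cells washed from the lungs of control mice, on 3 expression arrays for each group. These 6 arrays belong to a series of 12, whose other 6 arrays hold RAW264.7, a mouse macrophage-like cell line grown with or without estradiol. The members were taken by the group label alone, Pregnant or Control. Bronchoalveolar lavage recovers the free cells of the airways and alveoli, and the samples are labelled as lavage macrophages of intact mice. The labels give no strain, age, stage of pregnancy or number of animals per sample, no sex for the controls and no sorting of the cells, so that each array measures whatever the wash contained. The design text says that the lavage cells went directly to RNA extraction, whereas a treatment note of estradiol at 1 ug/mL overnight and a note on culture medium are attached to all samples alike. No label says whether the arrays of a group came from separate animals, so the p-values below measure only the spread between these arrays, which may be technical. A gene's level is given as log2(intensity + 1), a difference is the pregnant mean minus the control mean on that scale with its standard error, and a fold is computed from that difference.

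Alveolar macrophages live in the air spaces, take up inhaled particles and surfactant lipid, and are maintained by GM-CSF and the lipid-sensing receptor PPAR gamma. They renew themselves by local division, and their number is small beside that of the epithelial cells that line the same spaces. In pregnancy the mother's circulating estradiol, progesterone and prolactin rise, and immune cells in many tissues are known to respond to these hormones. Lavage also carries lymphocytes, dendritic cells, neutrophils and shed epithelial cells in amounts that vary from animal to animal.

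No gene of 12393 passed the test at an adjusted p under 0.05 (limma with Benjamini-Hochberg adjustment, 0% called). The smallest adjusted p was 0.115, for Ndrg1. Without adjustment, 761 genes (6.14% of those tested) were higher in the pregnant group at p under 0.05 and 402 (3.24%) were lower. By the means alone, 7495 genes (60.5%) were higher and 4898 (39.5%) lower, the shares against which the counts of each list below stand. On 1325 genes (10.7%) all 3 pregnant arrays lay above all 3 control arrays, and on 618 genes (4.99%) all 3 lay below. The excess of higher genes depended on the scaling of the arrays. When each array was shifted to a common median, 620 genes lay wholly above and 1174 wholly below, and the median difference of all genes went from 0.03 to -0.02. After quantile normalization of the 6 arrays the counts were 921 and 798. When all probe sets were used without choosing 1 per gene, they were 1875 and 1358. Differences close to these medians therefore carry no direction of their own. The median standard error of a difference was 0.0882, and the median SD between arrays of a group was 0.110.

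Some arrays stood apart from the rest of their own group. Control array 1 lay at least 0.5 above all 5 others on 134 genes and pregnant array 2 did so on 93, against 2 to 26 genes for the remaining arrays. Pregnant array 2 also had the largest differences between 3' and 5' control probes of actin, 0.39, and of the transferrin receptor, 3.86, measures that grow when RNA is shorter. Pregnant array 3 stood apart in another way, through the cell division genes described below. Without control array 1 a pair of genes was called. They were Serpinb11, a serine protease inhibitor family member of epithelia that was higher by 1.79, and the histone variant gene Macroh2a3, at -1.01. Serpinb11 stood at 6.57, 4.54 and 4.45 on control arrays 1 to 3 and at 6.32, 6.33 and 6.19 on the pregnant arrays, so that control array 1 was its highest. With both control array 1 and pregnant array 2 left out, no gene was called by limma.

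The defining markers of alveolar macrophages, Marco, Fabp4, Fabp1 and Car4, had high mean levels, from 11.58 for Marco to 13.66 for Fabp1. Marco differed by 0.30 with overlapping groups, and Fabp4 by 0.79 without overlap. Siglecf, a surface lectin of alveolar macrophages that is listed here with the eosinophil genes, stood between 12.98 and 13.22 on all 6 arrays. Fabp1, a fatty acid binding protein, stood at 13.71, 13.73 and 13.80 in controls and 13.62, 13.43 and 13.69 in the pregnant group, and Car4, a membrane carbonic anhydrase, between 13.28 and 13.45. Pparg, the transcription factor that sets this cell type, differed by 0.08 ± 0.11 (95% interval -0.19 to 0.35). Of the 25 measured genes of alveolar macrophage identity, 14 were higher and 11 lower, with a median difference of 0.02 against 0.03 for all genes, or -0.04 against -0.02 after the shift to a common median. The identity list as a whole was thus level between the groups, while its members Fabp4 and Fn1 differed by 0.79 and -0.94.

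Other cells in the wash varied more than the macrophage markers did. In bulk samples, fewer cells of a type and less RNA per cell cannot be told apart, and this holds for every list of cell type genes below. The mean level of the T cell list was highest on control arrays 1 and 2, at 0.44 and 0.31 above its mean over the 6 arrays, and lay between -0.27 and -0.07 on the pregnant arrays and at -0.18 on control array 3. The neutrophil list was highest on control array 1, at 0.60, and next on pregnant array 2, at 0.18. The airway epithelial list stood at 0.45 on control array 1, at 0.34 on pregnant arrays 1 and 2, and at -0.55, -0.37 and -0.21 on the remaining 3. The surfactant list peaked on pregnant array 2, at 0.65, and was lowest on control array 2, at -0.57. None of these 4 lists separated the groups. The endothelial list and the list of eosinophil, mast cell and basophil genes, both mostly of dim genes, did so narrowly. The endothelial list stood at -0.12 to -0.06 on control arrays and 0.05 to 0.10 on pregnant arrays. The eosinophil, mast cell and basophil list stood at -0.10 to -0.01 and at 0.02 to 0.15. By contrast, the alveolar macrophage list stayed within 0.05 of its mean on all 6 arrays.

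**Figure D1:**
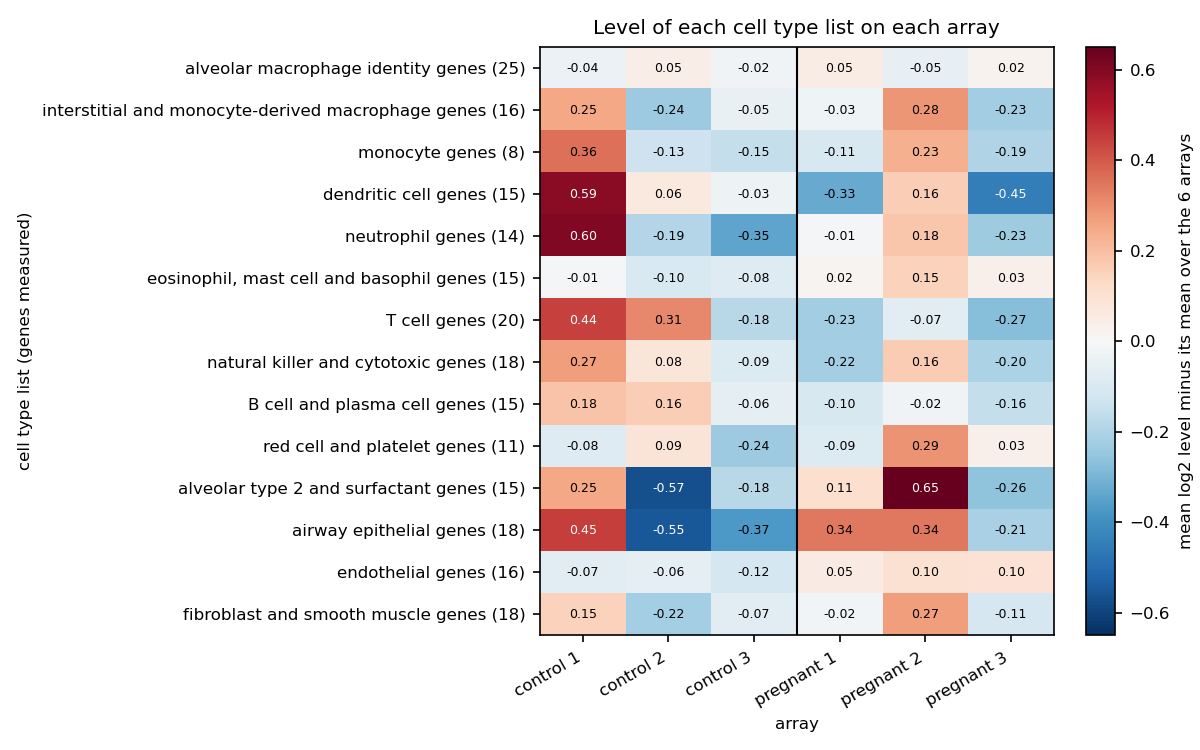
Mean log2 level of each cell type list on each of the 6 lavage arrays, as the deviation from the list's own mean over those arrays, with the number of genes measured in parentheses and the groups parted by a line. Control array 1 and pregnant array 2 carry the highest values of most lists of other cells, and the alveolar macrophage row is nearly flat, between -0.05 and 0.05.

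The clearest shared pattern lay in genes of cell division. All 37 measured mitosis and spindle genes had a higher mean in the pregnant group, with a median difference of 0.37 and a range of 0.01 to 0.63. On 12 of them (32.4%) all pregnant arrays lay above all control arrays, beside 10.7% of all genes, and 14 had an unadjusted p under 0.05, beside 6.14% of all genes. None of the 37 passed the adjusted test. Promoters of late cell cycle genes are known to share certain features, whatever the levels on these arrays. The cell cycle genes homology region, or CHR, is the short element through which the MuvB complex binds late cell cycle promoters, and it often stands near CCAAT boxes, which the factor NF-Y binds. The windows of the 3 members with the smallest p are shown for this reason. Each runs 5′ to 3′ from 250 bases before to 50 bases after the RefSeq start (GRCm38.p6), with CHR letters (TTTGAA or TTCGAA) and CCAAT letters in capitals, on either strand.

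Hmmr: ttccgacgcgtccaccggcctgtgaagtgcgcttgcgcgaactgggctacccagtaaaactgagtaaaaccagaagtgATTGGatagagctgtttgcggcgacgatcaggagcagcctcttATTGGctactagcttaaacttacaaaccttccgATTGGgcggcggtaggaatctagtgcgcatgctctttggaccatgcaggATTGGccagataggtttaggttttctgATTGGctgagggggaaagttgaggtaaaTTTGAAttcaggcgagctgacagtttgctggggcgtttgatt

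Ndc80: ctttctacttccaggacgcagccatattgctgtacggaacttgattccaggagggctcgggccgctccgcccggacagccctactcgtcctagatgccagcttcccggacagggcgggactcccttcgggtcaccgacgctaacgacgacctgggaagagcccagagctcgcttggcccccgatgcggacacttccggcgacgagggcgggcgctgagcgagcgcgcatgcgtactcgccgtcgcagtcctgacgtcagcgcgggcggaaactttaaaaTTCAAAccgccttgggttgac

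Bub1: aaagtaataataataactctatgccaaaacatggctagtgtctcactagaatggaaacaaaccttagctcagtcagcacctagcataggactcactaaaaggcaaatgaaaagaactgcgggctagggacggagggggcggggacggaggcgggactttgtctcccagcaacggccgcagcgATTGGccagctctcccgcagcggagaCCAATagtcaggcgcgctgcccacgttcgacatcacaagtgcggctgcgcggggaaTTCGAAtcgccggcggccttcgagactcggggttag

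The Hmmr window lies at chr11:40733388-40733687 on the minus strand and holds 1 CHR match, which begins 8 bases past the annotated start, and 5 CCAAT matches before it. The Ndc80 window lies at chr17:71526808-71527107, minus strand, with 1 CHR match beginning 29 bases past the start and 0 CCAAT matches. The Bub1 window lies at chr2:127831810-127832109, minus strand, with 1 CHR match beginning 14 bases past the start and 2 CCAAT matches. In these 3 windows no CHR match overlapped a CCAAT match. RefSeq windows were at hand for 30 of the 37 genes, 32 windows in all. CHR letters were found in 26 of the 32 (81.2%), against 14.6% of the 12566 windows of all measured genes. CCAAT letters were also found in 26 (81.2%), against 37.1%, and both in 23 (71.9%), against 5.76%. Such matches describe the letters of the windows and were not tied to the size of a gene's difference.

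Hmmr, which encodes a spindle protein and hyaluronan receptor, stood at 9.04, 9.34 and 9.17 on control arrays 1 to 3 and at 9.45, 9.96 and 10.01 on the pregnant arrays. The groups did not overlap, and the difference was 0.62 ± 0.16, or 1.54-fold (limma adjusted p = 0.438). Its other probe sets differed by 0.74 and 0.64, and a dim one by 0.05. Ndc80, a kinetochore protein, stood at 7.90, 8.35 and 8.25 and at 8.51, 8.67 and 8.96. The spindle checkpoint kinase Bub1 stood at 8.97, 9.24 and 9.02 and at 9.28, 9.77 and 9.94, and Ect2, the exchange factor that drives cytokinesis, at 9.50, 9.82 and 9.74 and at 9.88, 10.16 and 10.18. In each of these 4 genes control array 1 was the lowest and pregnant array 3 the highest. Cdk1, the kinase of mitotic entry, stood at 10.39, 10.43 and 10.42 and at 10.60, 10.64 and 11.11, with pregnant array 3 far above the others. The transcription factor Foxm1, which drives many of these genes, stood at 7.47, 7.75 and 7.47 and at 7.84, 7.85 and 8.38.

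That order ran through the list. Pregnant array 3 was the highest array for 34 of the 37 mitosis genes, and control array 1 was the lowest for 31. The list median was 0.19 without pregnant array 3 and 0.25 without control array 1, against 0.37 with all arrays. It was 0.30 without control array 1 and pregnant array 2, 0.32 after the shift to a common median and 0.26 with the T cell level as a covariate. The number of members wholly above the controls was 12 without pregnant array 3 (32.4%, beside 15.7% of all genes in that setting), 21 without control array 2 (56.8%, beside 18.4%) and 25 without pregnant array 1 (67.6%, beside 19.3%). It was 12 without control array 1 (32.4%, beside 17.2%) or control array 3 (32.4%, beside 16.8%), and 13 without pregnant array 2 (35.1%, beside 15.5%). By the mean level of the list, control arrays 1 to 3 stood at 9.11, 9.46 and 9.33 and the pregnant arrays at 9.41, 9.57 and 9.95, so that pregnant array 1 lay below control array 2. Whether the low cell division level of control array 1 goes with its higher lymphocyte, neutrophil and epithelial levels was not tested.

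Genes of DNA replication and S phase had the same array order with smaller differences. Of 34 measured, 31 were higher and 3 lower, with a median of 0.23. On 6 (17.6%, beside 10.7% of all genes) the groups did not overlap, all higher, and 5 were higher at an unadjusted p under 0.05, beside 6.14% of all genes. Pregnant array 3 was the highest array for 27 of the 34, and control array 1 the lowest for 25. Mcm10, which helps to load the replication fork, stood at 8.03, 8.50 and 8.21 and at 8.50, 8.89 and 8.99, so that pregnant array 1 and control array 2 were nearly level. Rfc5, a subunit of the clamp loader, was higher by 0.25 ± 0.08, Cdc45, part of the replicative helicase, by 0.38 ± 0.13, and the DNA ligase Lig1 by 0.35 ± 0.13. CHR letters were found in 14.3% of the 35 windows of these genes and CCAAT letters in 57.1%. The list median was 0.15 without pregnant array 3 and 0.14 without control array 1. The number of members wholly above the controls was 22 without control array 2 (64.7%, beside 18.4% of all genes) and 18 without pregnant array 1 (52.9%, beside 19.3%). It was 7 without control array 1 (20.6%, beside 17.2%) and 6 without control array 3 (17.6%, beside 16.8%). Without pregnant array 2 it was 9 (26.5%, beside 15.5%), and without pregnant array 3 it was 7 (20.6%, beside 15.7%).

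**Figure D2:**
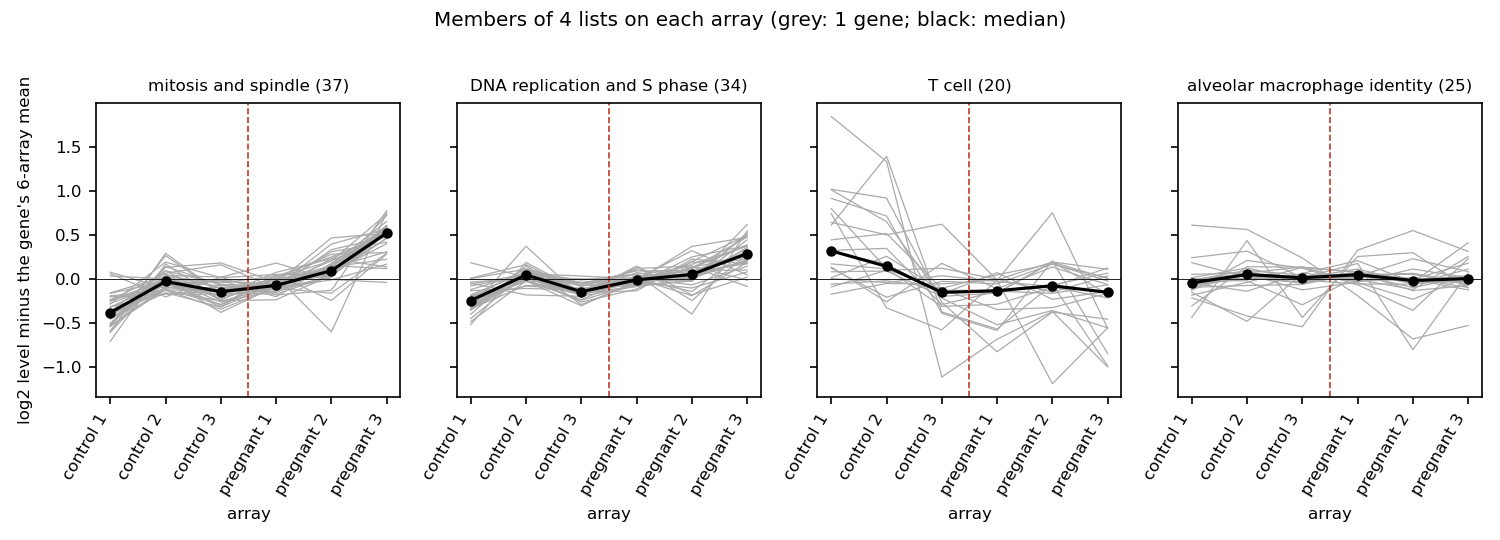
Log2 level of each member of 4 lists on each lavage array, minus that gene's mean over the 6 arrays (grey lines, 1 per gene; black line, the median; the lines join values of a gene and give arrays no order). Mitosis and S phase genes are highest on pregnant array 3, T cell genes stand high on control arrays 1 and 2, and most alveolar macrophage genes stay close to 0.

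Among single genes, the largest difference upward with p under 0.01, no overlap and a level clear of the dim range was that of Phlda3. A gene is called dim here when it lay above the 40th percentile of its array on fewer than 3 of the 6 arrays. Phlda3 encodes a p53-induced inhibitor of AKT at the membrane. It stood at 9.09, 8.81 and 8.80 on the control arrays and at 9.94, 10.33 and 9.92 on the pregnant arrays. The difference was 1.16 ± 0.14, or 2.23-fold (limma adjusted p = 0.289), with every pregnant array well above every control array. Tcim, a regulator of Wnt signalling, was higher by 1.05 ± 0.29, at 7.36, 6.23 and 6.48 against 7.90, 7.79 and 7.54. Tmcc2, a membrane protein of the endoplasmic reticulum, was higher by 0.91 ± 0.13, and its other probe set differed by 1.02.

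Ndrg1 had the smallest p of all genes. It encodes a stress protein known for its response to hypoxia. Its level was 8.54 on each of the 3 control arrays and 9.22, 9.36 and 9.30 on the pregnant arrays. The difference was 0.75 ± 0.06, or 1.68-fold, with a 95% interval of 0.60 to 0.90. Of its other 4 probe sets, 3 differed by 0.60, 0.73 and 0.51, the last at a mean level of 5.24. The remaining probe set, at a mean level of 6.28, differed by 0.01. Ndrg1 was called when dim genes were left out before the adjustment (limma adjusted p = 0.0391). It was also called when all 12 arrays of the series shared 1 estimate of the spread (limma adjusted p = 0.00116).

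Other hypoxia-responsive genes did not share the size of that difference. Of 23 measured, 16 were higher and 7 lower, with a median of 0.06 against 0.03 for all genes. The groups did not overlap on 7 higher genes (30.4%, beside 10.7% of all genes) and 1 lower gene (4.35%, beside 4.99%). Slc2a1, the main glucose transporter, stood at 11.76, 11.60 and 11.46 and at 11.86, 12.14 and 11.81, a difference of 0.33 ± 0.12. Its other probe sets differed by 0.37 and 0.36. The vasodilator peptide Adm was dim, and the histone demethylase Kdm3a was lower, at -0.15 ± 0.06. Glycolytic enzymes had a median of 0.05, and the regulators Pfkm, which was dim, and Pfkfb3 stood at -0.49 ± 0.12 and -0.27 ± 0.09. A second, dim probe set of Pfkfb3 differed by 0.01. The core of the hypoxia response element, ACGTG, was found in 16 of 29 promoter windows of the list (55.2%), against 23.3% of the windows of all genes, on either strand. Those windows covered 20 of the 23 genes, some with more than 1 window, and Ndrg1 had none.

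Phlda3 is one of the genes that p53 induces. Of 27 such genes measured, 15 were higher and 12 lower, with a median of 0.03 that became -0.03 after the shift to a common median. On 5 of them (18.5%, beside 10.7% of all genes) all pregnant arrays lay above all controls, and the same number were higher at an unadjusted p under 0.05 (beside 6.14%). The cell cycle inhibitor Cdkn1a stood at 11.68, 11.71 and 11.88 and at 12.07, 12.09 and 12.05, without overlap, a difference of 0.31 ± 0.07. Gtse1, a protein of G2 and mitosis that restrains p53, was higher by 0.58 ± 0.13 at a dim level. The costimulatory ligand Cd80, a member of this list too, was higher by 0.33 ± 0.12 with overlapping groups.

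**Figure D3:**
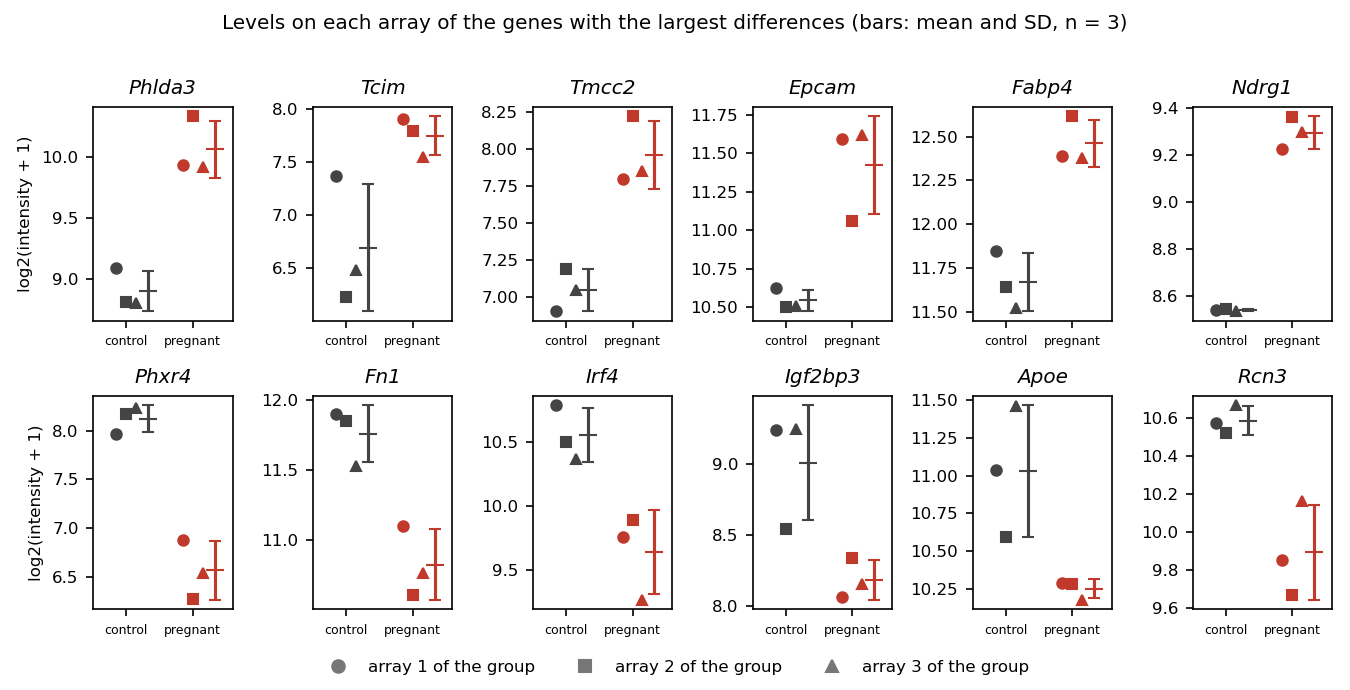
Log2 level on each lavage array of the 6 genes with the largest or smallest-p upward differences and 6 with the largest downward differences (points, arrays 1 to 3 of each group; bars, mean and SD, n = 3). Ndrg1 is level at 8.54 on all control arrays, and in all 12 genes the groups do not overlap.

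Genes of fatty acid uptake, storage and oxidation were level as a list. The 32 measured had a median of 0.03, the same as all genes, or -0.02 after the shift to a common median. Of these, 3 lay wholly above the controls (9.38%, beside 10.7% of all genes) and 3 wholly below (9.38%, beside 4.99%). Fabp4, the fatty acid binding protein that PPAR gamma induces in alveolar macrophages and fat cells, stood at 11.85, 11.64 and 11.52 on the control arrays and at 12.39, 12.62 and 12.38 on the pregnant arrays. The difference was 0.79 ± 0.11, or 1.73-fold (limma adjusted p = 0.395), and its 3 other probe sets differed by 0.88, 0.79 and 0.49. Scd1, the desaturase that makes monounsaturated fatty acids, stood at 10.97, 9.98 and 10.73 and at 11.25, 11.44 and 11.39, a difference of 0.80 ± 0.24 in which control array 2 was far below the rest. The carnitine palmitoyltransferase Cpt2 was higher by 0.33 ± 0.13 with overlap, and the fatty acid transporter Slc27a1 was lower, at -0.35 ± 0.11.

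Among sterol genes, Nr1h3, which encodes the oxysterol receptor LXR alpha, stood at 9.81, 10.003 and 9.90 and at 10.27, 10.45 and 10.54. It was higher by 0.51 ± 0.09, and the cholesterol 25-hydroxylase Ch25h, which makes an oxysterol, by 0.37 ± 0.09. Apoe, a lipid carrier and a known LXR target, stood at 11.04, 10.59 and 11.46 and at 10.29, 10.28 and 10.18. The difference was -0.78 ± 0.21, with all pregnant arrays below all controls and the controls far more spread than the pregnant arrays. Mylip, another LXR target that removes the LDL receptor, was at -0.19 ± 0.07. The 15 genes of sterol efflux and LXR action lay both ways, with 6 higher and 9 lower and a median of -0.03. Of these, 3 (20%, beside 10.7% of all genes) lay wholly above the controls and 2 (13.3%, beside 4.99%) wholly below. Cholesterol synthesis genes were near level, with a median of 0.01 over 19 genes. Apoe also belongs to the interstitial macrophage list, of which 6 of 16 genes were higher, with a median of -0.07. F13a1 of that list, a transglutaminase, was higher by 1.13 ± 0.25 at a dim level. Its complement genes C1qa, C1qb and C1qc were each highest on control array 1 or pregnant array 2.

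Caveolae are small membrane pits built on caveolin. Cav1, the caveolin itself, stood at 11.67, 11.62 and 11.67 and at 12.13, 12.28 and 12.34, a difference of 0.59 ± 0.07, or 1.51-fold (limma adjusted p = 0.289). Ehd2, an ATPase at the neck of caveolae, was higher by 0.96 ± 0.23 at a dim level on the probe set kept, whereas its other probe sets differed by 0.03 and -0.71. The scaffold Flot1 was higher by 0.11 ± 0.06. Of 12 genes in the list, 9 were higher, with a median of 0.09, and 3 (25%, beside 10.7% of all genes) lay wholly above the controls. Cav1 is abundant in endothelium. The defining endothelial markers Pecam1, Cdh5, Kdr and Tek were all dim, between 3.72 and 5.43, and differed by between -0.08 and 0.13. Of 16 endothelial genes 12 were higher, with a summed intensity of 16041 to 16410 on the control arrays and 17560 to 19359 on the pregnant arrays, of which Cav1, a member, is a part. Also in that list, the TGF beta coreceptor Eng, which was dim, and Vwf, von Willebrand factor, were higher by 0.53 ± 0.08 and 0.41 ± 0.11, and a second probe set of Eng differed by 0.05. Whether the Cav1 signal came from endothelium or macrophages was not tested.

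Further genes of the leading set had varied roles. Hr, a histone demethylase and nuclear corepressor, was higher by 0.76 ± 0.17, and the phospholipase Pafah2, which degrades oxidised phospholipid, by 0.74 ± 0.19. Rhbdf1, an inactive rhomboid that steers the protease ADAM17, stood at 8.11, 8.42 and 8.36 and at 8.999, 8.84 and 9.26, a difference of 0.74 ± 0.13. Dysf, the membrane repair protein dysferlin, was higher by 0.70 ± 0.14, and Nckap1, of the WAVE complex that drives actin branching, by 0.68 ± 0.18. The purine enzyme Xdh, xanthine dehydrogenase, was higher by 0.63 ± 0.17, the adaptor Sh2b2 by 0.60 ± 0.12 and Clstn1, a transport protein of vesicles, by 0.60 ± 0.11. In all of these the groups did not overlap and none passed the adjusted test. The second probe sets of Sh2b2 and Clstn1 differed by less, 0.21 and 0.23. Bex2 and Kcnj14, both dim, and Rtl6 were also among the 10 smallest p-values, at 0.81 ± 0.10, 0.48 ± 0.07 and 0.58 ± 0.09.

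The largest difference downward in that set was that of Phxr4, a transcript of unsettled function. It stood at 7.96, 8.17 and 8.23 on the control arrays and at 6.88, 6.28 and 6.54 on the pregnant arrays. The difference was -1.56 ± 0.16, a level 2.94-fold lower (limma adjusted p = 0.221, and 0.00435 with all 12 arrays in the fit). Fn1, fibronectin, which binds cells to matrix and is made by alveolar macrophages, stood at 11.90, 11.85 and 11.53 and at 11.10, 10.61 and 10.76. Its difference was -0.94 ± 0.15, and its other probe set differed by -0.92. Rcn3, a calcium-binding protein of the secretory pathway, was at -0.69 ± 0.13 and Igf2bp3, an RNA-binding protein of growth, at -0.82 ± 0.20.

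Differences of many named genes were also computed with the lymphocyte level and with fewer arrays, and those of 7 are given here. With the T cell level as a covariate, the differences were 1.36 for Phlda3, 0.77 for Ndrg1, 0.99 for Fabp4, 0.58 for Cav1, -0.77 for Fn1, -1.75 for Phxr4 and -1.11 for Apoe. Without control array 1 and pregnant array 2 they were 1.12, 0.72, 0.80, 0.59, -0.76, -1.49 and -0.79, in the same order of genes. Tcim was higher by 1.37 without those arrays and Tmcc2 by 0.71. With the covariate, Hr went from 0.76 to 0.47 and Pafah2 from 0.74 to 1.14. The standard error of Cav1 was 0.11 with the covariate.

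Fn1 did not stand for matrix genes in general. Of 26 extracellular matrix and remodelling genes, 15 were higher and 11 lower, with a median of 0.04. The metalloproteinase inhibitor Timp2 was higher by 0.37 ± 0.10, at 11.54, 11.21 and 11.48 against 11.82, 11.75 and 11.79. The laminin chain Lamc1, at -0.53 ± 0.10, and the basement membrane protein Nid2, at -0.80 ± 0.11, were both lower and both dim, and the second probe set of Lamc1 differed by -0.20. The collagen markers of fibroblasts, Col1a1, Col1a2 and Col3a1, were dim, between 4.85 and 5.51, with differences of 0.10, 0.01 and 0.03. Of 18 fibroblast and smooth muscle genes 14 were higher, with a median of 0.08 and a summed intensity of 1434 to 2631 on control and 1548 to 3670 on pregnant arrays.

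Irf4, a transcription factor of lymphocytes, dendritic cells and alternatively activated macrophages, stood at 10.79, 10.50 and 10.37 and at 9.76, 9.89 and 9.27. The groups did not overlap, and the difference was -0.91 ± 0.18 (limma adjusted p = 0.413), whereas its other probe set, dim at a mean of 5.27, differed by -0.24. With the T cell level as a covariate the difference was -0.63. Dendritic cell genes lay lower beside it. Of 15 measured, 12 were lower, with the list median at -0.38 and a summed intensity of 12818 to 17380 on control and 9929 to 13368 on pregnant arrays. Only Irf4 lay wholly below the controls (6.67%, beside 4.99% of all genes), and Bst2 lay wholly above (6.67%, beside 10.7%). The migration receptor Ccr7 was at -1.10 ± 0.56, and the chemokines Ccl17 and Ccl22, which attract T cells, were at -0.99 ± 0.51 and -0.81 ± 0.39. Bst2 and Batf3 were higher, by 0.16 and 0.26. In Ccl17 the array order was 11.24, 9.73 and 9.77 against 8.96, 10.09 and 8.73, so that pregnant array 2 overlapped the controls. The defining markers Flt3, Itgae and Cd209a were dim, and the other defining marker, Zbtb46, was at -0.38 on the probe set kept. Its dimmer probe sets differed by 0.01 and 0.08. The list median was -0.06 with the T cell level as a covariate, -0.20 without control array 1, -0.24 without pregnant array 3 and -0.19 without pregnant array 1.

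T cell genes held the largest downward difference of any list, -1.37 for Cd3g. Of 20 measured, 14 were lower and 6 higher, with a median of -0.15, and only 3 of the 20 were above the dim range. The median was -0.27 without control array 3, -0.10 without control array 1 and 0.003 once dim genes were removed. On 4 (20%) all pregnant arrays lay below all control arrays, beside 4.99% of all genes, and the same number had an unadjusted p under 0.05, beside 3.24%. Their summed intensity, set mostly by the 3 brighter members, was 12982 to 14695 on control and 12822 to 13603 on pregnant arrays. Cd3e, the receptor-associated chain that defines T cells, stood at 7.68, 8.46 and 6.69 and at 6.50, 7.005 and 6.08. Cd3g stood at 8.41, 7.90 and 5.45 and at 5.88, 6.20 and 5.57, and Cd3d at 8.003, 7.80 and 6.70 and at 6.50, 7.29 and 6.24. In all 3 chains control arrays 1 and 2 were high and control array 3 lay among the pregnant arrays, so the groups overlapped.

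Other T cell members separated the groups without that overlap, at dim levels. Thy1, a surface glycoprotein, stood at 7.33, 7.23 and 6.05 and at 5.49, 5.94 and 5.86, and the coreceptor Cd28 at 5.31, 4.95 and 4.08 and at 3.78, 3.94 and 3.74. The differences were -1.11 ± 0.34 and -0.96 ± 0.29, with control array 3 nearest to the pregnant arrays in both. The second probe set of Cd28 differed by -0.17. Cd247, the zeta chain, was at -1.17 ± 0.27 on the probe set kept and at -0.51 when its probe sets were averaged. The 4 genes wholly lower were all dim, so that 0 were left once dim genes were removed. Their number was 10 without control array 3 (50%, beside 8.74% of all genes in that setting), 7 without pregnant array 2 (35%, beside 7.79%) and 8 without control array 1 and pregnant array 2 (40%, beside 15.1%). It was 5 without control array 1 (25%, beside 10.5%). Without control array 2, pregnant array 1 or pregnant array 3 it was 4 (20%, beside 8.12% to 9.39%). Several transcripts of lymphocytes outside the lists were likewise highest on control arrays 1 and 2, and they are named here after their values were seen. The interleukin 2 receptor Il2ra was at -1.39 ± 0.35, the chemokine receptor Cxcr6 at -1.23 ± 0.32 and the interleukin 18 receptor Il18r1 at -1.02 ± 0.30, all dim and without overlap. Others, also dim, had overlapping groups. Among them were the T cell receptor segments Trav9d-3 at -1.76 ± 0.63, Trbv1 at -1.31 ± 0.63 and Trgv4 at -1.25 ± 0.71.

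Natural killer and B cell genes also lay mostly lower. Of 18 natural killer and cytotoxic genes 13 were lower, with a median of -0.10, and 16 of the 18 were dim. That median was -0.05 without control array 1, -0.17 without pregnant array 2 and 0.06 with the T cell covariate. Ctsw, a protease of cytotoxic lymphocytes, stood at 6.25, 6.004 and 5.54 and at 4.73, 5.18 and 4.66, a difference of -1.08 ± 0.21, whereas the natural killer receptor Ncr1 differed by -0.13 ± 0.21. Of 15 B cell and plasma cell genes 10 were lower, with a median of -0.15 that was -0.02 without control array 2, and the defining markers Cd79a, Cd79b, Ms4a1 and Pax5 were all dim, between 4.39 and 5.72. The kinase Blk was at -0.50 ± 0.18, with overlap between control array 3, at 5.34, and pregnant array 2, at 5.35.

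Genes of antigen presentation lay both ways. Of 18 MHC class II and costimulation genes 11 were lower and 7 higher, with a median of -0.05, and 4 (22.2%, beside 4.99% of all genes) lay wholly below the controls. The median was 0.08 without control array 1 and 0.03 without pregnant array 3. H2-DMb2, a chain of the peptide loading complex, stood at 9.46, 9.28 and 9.51 and at 9.06, 8.85 and 9.13, a difference of -0.40 ± 0.10, and H2-DMa, its partner, was at -0.19 ± 0.07. The inhibitory ligand Pdcd1lg2 was at -0.24 ± 0.08. With the T cell level as a covariate the list median was 0.19, the opposite sign, while H2-DMb2 was at -0.52.

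Receptors for chemoattractants, complement and antibody lay mostly lower. Of 12 chemoattractant receptor genes 10 were lower, with a median of -0.17, and 3 were lower at an unadjusted p under 0.05, beside 3.24% of all genes. Only 1 (8.33%, beside 4.99% of all genes), Cxcr4, lay wholly below the controls. Cxcr4, the receptor of CXCL12, stood at 13.15, 13.15 and 13.07 and at 12.93, 12.97 and 12.73, a difference of -0.25 ± 0.08 without overlap. The monocyte receptor Ccr2 was at -0.66 ± 0.25 with overlap between control array 3, at 8.59, and pregnant array 2, at 8.60, and at -0.26 with the T cell level as a covariate. C5ar1, the receptor of complement C5a, stood at 10.12, 9.76 and 9.59 and at 9.63, 8.67 and 9.30, and its difference of -0.62 ± 0.26 became -0.21 without control array 1 and pregnant array 2. Of 16 complement and Fc receptor genes 14 were lower, with a median of -0.19, and only 1 (6.25%, beside 4.99% of all genes), Fcgr1, lay wholly below the controls. That median was -0.02 without control array 1, -0.05 without pregnant array 3 and -0.01 with the T cell covariate. Fcgr1, the high-affinity IgG receptor of macrophages, stood at 13.06, 13.09 and 13.14 and at 12.85, 12.75 and 12.96. It was lower without overlap, at -0.25 ± 0.07, and at -0.32 with that covariate.

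The remaining downward genes of the leading set had varied roles. Cysltr1, a receptor of cysteinyl leukotrienes, stood at 7.82, 7.73 and 7.65 and at 7.24, 6.67 and 7.33, a difference of -0.66 ± 0.17. St6gal1, the enzyme that adds alpha-2,6 sialic acid to glycoproteins, stood at 9.47, 9.62 and 9.33 and at 8.96, 8.91 and 8.90, a difference of -0.55 ± 0.09, and it was called with all 12 arrays in the fit (limma adjusted p = 0.0136). A second, dim probe set of St6gal1 differed by -0.12. The chemokine Cxcl14 was at -0.53 ± 0.11 and Cyp4f18, which inactivates leukotriene B4, at -0.52 ± 0.09. Nrf1, a transcription factor of mitochondrial genes, was at -0.54 ± 0.12 on the probe set kept, but at 0.14 and -0.37 on its other probe sets, the first of them nearly as bright. The 27 oxidative phosphorylation genes differed by -0.06 to 0.09. The centrosomal protein Cspp1, the endosomal GTPase Rab5b, Qser1 and the zinc finger gene Zfp654 completed the set, at -0.57 ± 0.13, -0.56 ± 0.15, -0.53 ± 0.14 and -0.50 ± 0.08. Other probe sets differed by -0.22 for Cspp1 and by -0.32 and -0.16 for Qser1.

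Epithelial genes were mostly higher and varied widely between arrays. Of 18 airway epithelial genes 16 were higher, with a median of 0.31, a summed intensity of 31651 to 66330 on control arrays and 39067 to 59923 on pregnant arrays, and 3 (16.7%, beside 10.7% of all genes) wholly above the controls. The median was 0.08 without control array 2 and 0.54 without control array 1. The secretory cell protein Scgb1a1 stood at 13.42, 12.56 and 13.09 and at 13.19, 13.27 and 12.48, level between the groups at -0.04 ± 0.28. Epcam, an adhesion protein of epithelia, did not follow that order. It stood at 10.62, 10.50 and 10.51 and at 11.59, 11.06 and 11.62, a difference of 0.88 ± 0.16, or 1.84-fold (limma adjusted p = 0.395), and at 1.10 without control array 1 and pregnant array 2. The cadherin Cdh1 lay the other way, at 12.05, 12.22 and 12.17 against 11.92, 11.73 and 11.89, a difference of -0.30 ± 0.08, and the tubulin Tubb4b was higher by 0.26 ± 0.06. Whether the Epcam signal came from shed epithelium or macrophages was not tested.

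Surfactant genes had a list median of 0.34, with 9 of 15 higher (60%, beside 60.5% of all genes). The median was 0.03 without control array 2 and 0.02 without pregnant array 2, the level of all genes. Sftpc, surfactant protein C of alveolar type 2 cells, stood at 11.72, 9.42 and 10.83 and at 11.47, 12.74 and 10.81, and its difference of 1.02 ± 0.69 had a 95% interval of -0.62 to 2.66. Sftpb, surfactant protein B, was higher without overlap by 0.64 ± 0.24, but its 8.04 on pregnant array 2 was set against 7.21 and 7.14 on the other pregnant arrays. Pdpn, the type 1 cell glycoprotein that macrophages can express, was higher by 0.36 ± 0.13.

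Genes of interferon response were mostly higher by small amounts. Of 28 measured, 24 were higher and 4 lower, a share of 85.7% higher beside 60.5% of all genes, with a median of 0.14, and 5 (17.9%, beside 10.7%) lay wholly above the controls. The median was 0.03 without pregnant array 2, level with all genes, and 0.08 without control array 3. Tap1, the peptide transporter of MHC class I, stood at 10.21, 10.37 and 10.23 and at 10.45, 10.52 and 10.59, a difference of 0.25 ± 0.07, while its 3 dimmer probe sets differed by -0.08 to 0.06. Bst2, which tethers virus at the membrane, stood at 10.36, 10.39 and 10.37 and at 10.56, 10.52 and 10.53, a difference of 0.16 ± 0.05. Without control array 1 and pregnant array 2 the list median was 0.06, and with the T cell covariate it was 0.24. NF-kB inflammatory genes had a median of 0.05 over 29 genes, with 0 at an unadjusted p under 0.05 in limma, none called, and Tnip1, an inhibitor of NF-kB, at 0.30 ± 0.13.

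**Figure D4:**
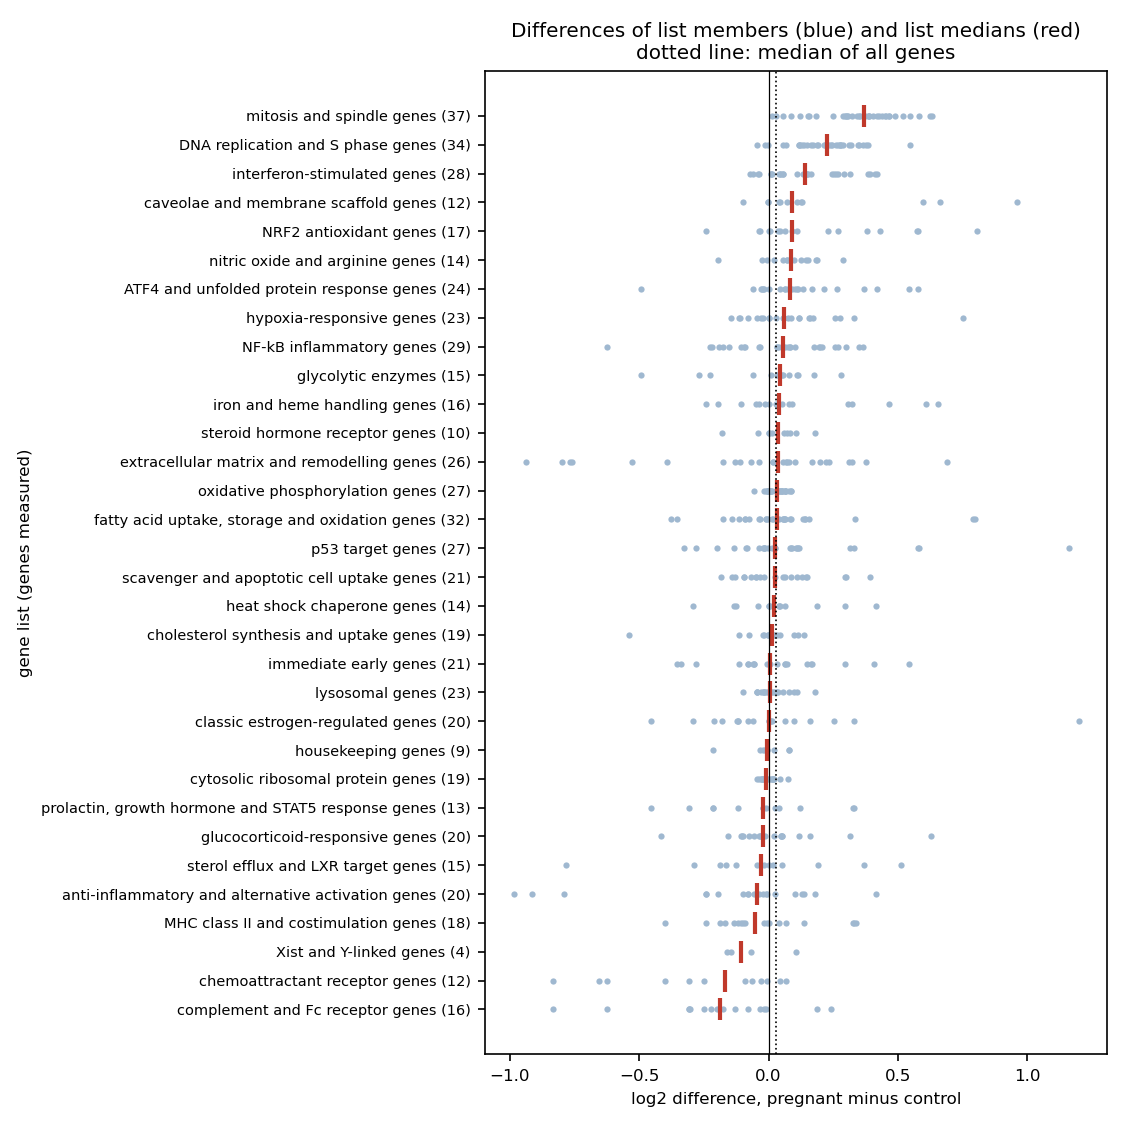
Log2 difference between the groups for each member of the pathway and quality lists (blue points), with the list median (red bar) and the median of all genes (dotted line, 0.03). The mitosis list, with a median of 0.37, and the S phase list, with 0.23, lie farthest to the right, and the complement and Fc receptor list, at -0.19 with all arrays and -0.02 without control array 1, farthest to the left.

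Receptors and targets of the hormones of pregnancy had list medians near that of all genes. Of 10 steroid hormone receptor genes, 8 were higher (80%, beside 60.5% of all genes) and 2 (20%, beside 10.7%) lay wholly above the controls, with a median of 0.04 and 6 of the 10 dim. The estrogen receptor Esr1 differed by 0.00 ± 0.09 (95% interval -0.21 to 0.21), the progesterone receptor Pgr by 0.00 ± 0.09 (-0.20 to 0.21) and Esr2 by 0.18 ± 0.09 (-0.03 to 0.39). These 3 genes were dim on all arrays, so that the intervals bound the signal of their probe sets more than the amount of receptor. The glucocorticoid receptor Nr3c1 stood at 12.45, 12.30 and 12.52 and at 12.26, 12.11 and 12.36, a difference of -0.18 ± 0.09. Of 20 genes known for regulation by estrogen, 11 were higher and 9 lower, with a median of 0.00. The corepressor Nrip1 was lower without overlap, at -0.29 ± 0.09. Fkbp5, the chaperone that glucocorticoid and progesterone induce, stood at 11.30, 11.79 and 12.31 and at 12.43, 12.29 and 12.55, with a control group that spanned more than the difference of 0.63 ± 0.24. With the T cell covariate that difference was 0.07.

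Targets of prolactin and growth hormone signalling through STAT5 lay both ways, with 5 of 13 higher (38.5%, beside 60.5% of all genes) and 8 lower. Cish, the feedback inhibitor that STAT5 induces, stood at 10.76, 10.93 and 11.14 and at 10.67, 10.34 and 10.46, a difference of -0.45 ± 0.13 without overlap. The kinase Pim2 was at -0.31 ± 0.10 at a dim level, and the list of 13 genes had a median of -0.02. Igf1 of that list was higher by 0.33 ± 0.16 with overlap on the probe set kept, whereas its other probe sets differed by -0.34 and -0.25. The nitric oxide synthases Nos1, Nos2 and Nos3 were dim on all arrays and differed by 0.10 ± 0.14, -0.02 ± 0.12 and 0.00 ± 0.13. For Nos2 the 95% interval was -0.30 to 0.25. Around them, 11 of 14 nitric oxide and arginine genes were higher, with a median of 0.09, and the arginine transporter Slc7a2 stood at 10.61, 10.73 and 10.68 and at 10.77, 10.92 and 10.76.

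Lists of general cell upkeep were level. The 19 cytosolic ribosomal protein genes differed by -0.05 to 0.08, with a median of -0.01. The 23 lysosomal genes differed by -0.10 to 0.18, with a median of 0.01, and no member lay wholly apart. Of 24 ATF4 and unfolded protein response genes 18 were higher, with a median of 0.08, led by Creld2, a chaperone of the endoplasmic reticulum, at 0.26 ± 0.08, and Atf3, a stress transcription factor, at 0.54 ± 0.21 with overlap. Immediate early genes had a median of 0.01, and Maff among them was higher without overlap by 0.41 ± 0.11.

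The number of genes called depended most on the arrays that estimate the spread. When all 12 arrays of the series shared a spread, 12 genes were called higher and 6 lower, with the same differences. Of the genes above, these were Ndrg1, Fabp4, Phlda3, Tmcc2, Clstn1 and Bex2, which were higher, and Phxr4, St6gal1 and Nid2, which were lower. The median SD within groups was 0.0901 among the RAW264.7 arrays and 0.110 among the lavage arrays. The shared spread thus draws on more arrays, some of which varied less. The standard error of Phxr4 was 0.158 with 6 arrays and 0.152 with 12. Which of these features led to the calls was not tested. In that fit Fabp4 and Phlda3 each had a limma adjusted p of 0.00586 and Tmcc2 one of 0.0167. The remaining genes called were Csrp1, Lyrm1, Rab34, Npdc1, Dpysl3 and St3gal1 upward and Lncpint, Spon1 and Edil3 downward, with sizes of 0.37 for St3gal1 to 1.01 for Npdc1 and of -0.84 for Spon1 to -1.43 for Lncpint.

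**Figure D5:**
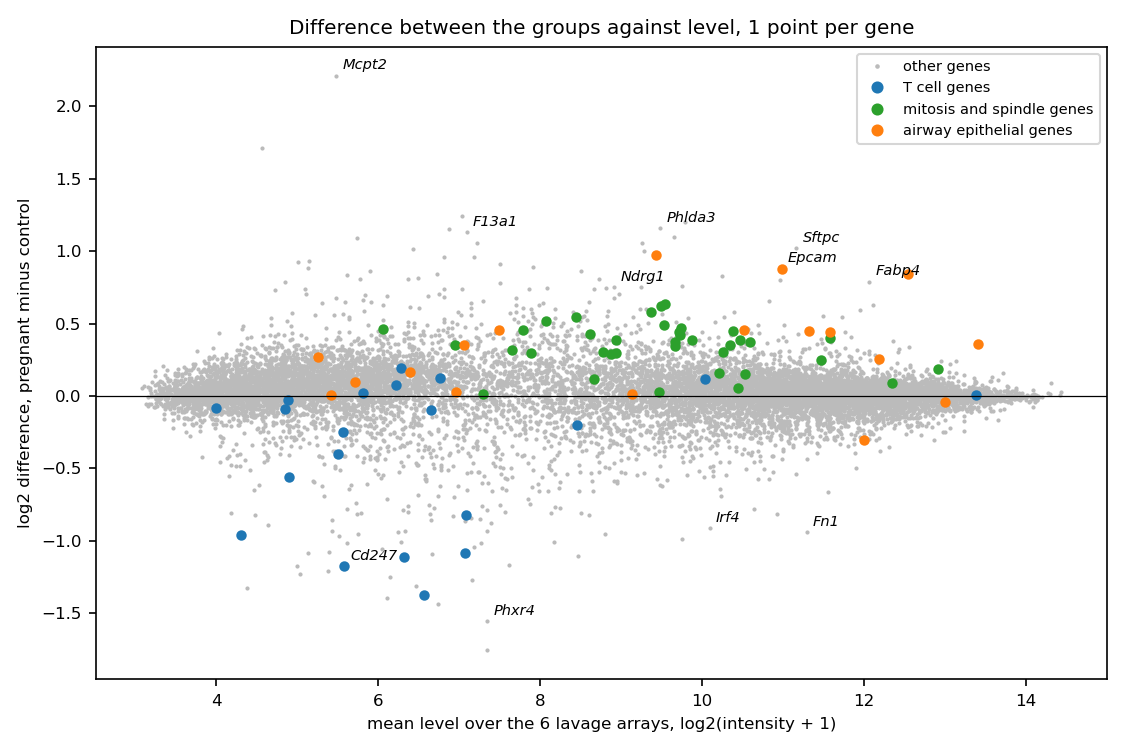
Log2 difference between the groups against mean log2 level over the 6 lavage arrays, 1 point per gene, with T cell, mitosis and airway epithelial genes in colour and some genes named. The widest differences, up to 2.21 for Mcpt2, lie at low levels, mitosis genes form a band above 0, and T cell genes spread downward at low levels.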

How the data were processed

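Total RNA of 3 pregnant and 3 control lavage samples was measured on Affymetrix mouse arrays. The deposited table holds a linear intensity per probe set, made by the authors with RMA per the submitters' processing notes (background correction, quantile normalization and probe summary), with no version given. RMA evens out overall differences between arrays. Of 22690 probe sets, 20380 had 1 gene symbol in the platform annotation, 691 several and 1555 none, and 64 controls were left out. Each of 12393 genes was represented by its probe set with the highest mean across the 12 arrays. No array repeated the values of another. Values were taken as log2(intensity + 1), which slightly understates differences of dim genes, and fitted on the 6 lavage arrays in limma 3.58.1 (R 4.3.3, lmFit and eBayes, two-sided, Benjamini-Hochberg over all genes, called under 0.05). The script was tested on simulated data. The number of arrays limits the precision.

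The members, the 46 gene lists (859 of 992 entries measured) and the alternatives were chosen with earlier results of these data known, so lists are described by counts and medians, with no test. Genes are named by rule: the 15 largest differences each way with p under 0.01, no overlap and not dim (predicted genes left out), up to 4 members of each list by smallest p, the first 4 measured members of each cell type list, the 10 smallest p, and the nitric oxide synthases and steroid receptors. A few list members, and the genes called only in an alternative fit, were added after their values were seen. Alternatives were quantile normalization, a common median, a filter on dim genes, averaged probe sets per gene, all probe sets, a robust prior with an intensity trend, weighted arrays, a fit of all 12 arrays, other pseudocounts (none or 16), an adjusted p under 0.1, the T cell level as a covariate and each array left out. Leaving out control array 1 and pregnant array 2 together was added after seeing the data. Promoter windows came from RefSeq (GRCm38.p6), matched by symbol to 9887 genes. Python 3.11.15 with pandas 2.3.3 and matplotlib 3.10.9 did the rest.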

Additional observations from a re-analysis of the deposited data

How the results depend on the processing

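No gene was called with quantile normalization, a common median, averaged probe sets, all probe sets, the robust prior, array weights, other pseudocounts, the T cell covariate, an adjusted p under 0.1 or control array 1 and pregnant array 2 left out. The filter on dim genes called 1, and all 12 arrays in the fit called 12 higher and 6 lower, where more arrays estimate the spread. Leaving out 1 array gave 0 to 1 calls in each direction. Genes at an unadjusted p under 0.05 were 506 higher with quantile normalization, 369 higher and 684 lower with a common median, 400 higher with the filter, which tests fewer genes, and 981 lower with all probe sets. Genes without overlap were 620 higher and 1174 lower with a common median, 692 higher with the filter and 1358 lower with all probe sets. They ranged from 1918 to 2396 higher and 966 to 1296 lower with 1 array left out, and were 2921 and 1873 without control array 1 and pregnant array 2, since fewer arrays overlap less often.

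Of the genes named, 156 were followed through the alternatives, and some, such as Marco, Batf3 and Zbtb46, were not. Those followed gave 2587 values under 17 alternatives, of which 3 had the opposite sign to a difference that was larger than its standard error. Igk-V21 was 0.28 with the T cell covariate and 0.015 without control array 1 and pregnant array 2, where control array 1 alone held its signal, and Cd209a was 0.056 with the covariate. The covariate values lay within their standard errors, of 1.19 and 0.52. The cause of that change was not tested. Of 284 list medians, 15 moved by more than the spread of the list between arrays.

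No paired analysis was possible because the labels carry no replicate numbers. The deposited intensities come without detection calls, so the signal over background of dim genes, such as most lymphocyte markers, Nos2 and Esr1, is unknown.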

Other observations

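The mast cell protease genes Mcpt2 and Mcpt1 had the widest upward differences of all genes, and they are described here after their values were seen. Mcpt2 stood at 5.19, 4.01 and 3.92 on control arrays 1 to 3 and at 6.97, 8.56 and 4.23 on the pregnant arrays. Mcpt1, its neighbour in the same family, stood at 3.97, 3.73 and 3.44 and at 5.45, 7.19 and 3.63. The differences were 2.21 ± 1.04 and 1.71 ± 0.81, with pregnant arrays 1 and 2 high and pregnant array 3 at the level of control array 1 or below it. Of 15 genes of eosinophils, mast cells and basophils 12 were higher, with a median of 0.08, and 3 (20%, beside 10.7% of all genes) lay wholly above the controls. Only 2 were above the dim range, and Cma1, another mast cell protease, was higher by 0.25 ± 0.09. The eosinophil granule genes Epx and Prg2 were dim, with 0.25 ± 0.09 and 0.30 ± 0.13.

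Some genes had wide differences between arrays of a group. The neutrophil gene S100a9 stood at 13.57, 11.25 and 10.83 and at 11.35, 11.98 and 10.32, and the iron-binding protein Ltf at 10.93, 8.62 and 8.02 and at 10.53, 10.86 and 9.78. The club cell protein Scgb3a2 stood at 12.72, 10.42 and 10.95 and at 12.42, 12.29 and 10.70. Pfn2, a profilin that shapes actin, stood at 10.09, 8.63 and 8.58 and at 10.24, 10.90 and 9.45, and Dnmt3l, a cofactor of DNA methyltransferases, at 9.51, 8.29 and 8.41 and at 9.79, 10.50 and 9.07. In all of these, control array 1 and pregnant arrays 1 and 2 lay above control arrays 2 and 3, in an order among themselves that differed between genes. Alas2, the heme synthesis enzyme of red cells, peaked on pregnant array 2, at 11.49 against 7.59 to 9.71 elsewhere, while the globin gene Hba-a1 was dim on all arrays. The antibody light chain gene Igk-V21 was at 7.68 on control array 1 and between 3.65 and 3.83 on the others. Of 40 genes that differed by over 1 on the log2 scale, 14 higher and 26 lower, 16 had groups that did not overlap.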
